A study of Mus musculus with 2 samples.

Results

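Foam cells are macrophages loaded with lipid, and 52 aortic cells carried that class in the deposited cell annotation: 17 of the diabetic library and 35 of the control library. They were taken from 5584 cells that the authors had placed in 13 classes, out of 7673 barcodes with counts. They are described mainly against the largest macrophage class, labelled Mac, which held 229 diabetic and 510 control cells.

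The aortae came from male C57BL/6 mice lacking apolipoprotein E (Apoe-/-), a lipoprotein ligand whose loss raises plasma cholesterol and leads to atherosclerosis, so the deletion was shared by both groups. Diabetic mice had received streptozotocin, a toxin of pancreatic beta cells, at 55 mg/kg per day by intraperitoneal injection on 5 days from 6 weeks of age, and control mice citrate vehicle. After 10 weeks of follow-up the mice were 17 weeks old, and digested aortic cells of 4 mice were pooled per group, sorted as viable (7AAD excluded, calcein taken up) and made into 1 droplet library. The series asks what the AP-1 transcription factors do in diabetic atherosclerosis. Each group being a single pool of mice, mouse-to-mouse spread cannot be seen, differences carry no p-value, and the intervals (95% confidence) cover counting error only.

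Macrophages take up modified lipoproteins through scavenger receptors, hydrolyse their cholesterol esters in lysosomes, store re-esterified cholesterol in droplets and pass free cholesterol to lipoproteins through membrane exporters. Oxysterols made on the way activate the liver X receptors, which switch on those exporters. In mouse plaques and in fat tissue, lipid-loaded macrophages are known for the lipid receptor Trem2, the lysosomal glycoprotein Gpnmb, secreted osteopontin (Spp1) and the fatty acid carrier Fabp5, whereas resident macrophages of the outer vessel wall are known for Lyve1, Folr2 and Cd163.

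The label was checked against markers. A list of 11 pan-macrophage genes, which includes Adgre1, Csf1r and the C1q chains, had 36217 and 44181 CPM (UMIs per 1000000 UMIs of the class) in diabetic and control foam cells, and 52 of 52 cells had at least 10 of these UMIs. The 4 foam cell markers together had 5738 and 7607 CPM in diabetic and control foam cells, against 925 and 415 CPM in diabetic and control Mac. Monocytes also held them, with 2781 CPM in 19 diabetic and 10497 CPM in 9 control cells, where 1 control cell had 82.5% of the control UMIs. Over 12643 genes the profile of the foam cells was nearest to Mac (Pearson r 0.916 on log2 CPM with a pseudocount of 10), then to monocyte-derived dendritic cells (0.889) and monocytes (0.860), as a description across genes of pooled cells. The classes came from the authors' clustering of the same cells, so all foam cell against Mac values are descriptions of the class.

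Foam cells were deeper than Mac, with a median of 8608 UMIs per cell in the diabetic and 6986 in the control library, against 4129 and 4506 in diabetic and control Mac. Their totals were 153353 and 254226 UMIs. Other cell types left few transcripts in foam cells: smooth muscle markers had 97.8 and 90.5 CPM, fibroblast markers 32.6 and 106 CPM and neutrophil markers 26.1 and 31.5 CPM in diabetic and control foam cells, and adipocyte and mast cell markers were at 0. T cell markers had 50 UMIs in diabetic foam cells (326 CPM, all 9 markers present) and 3 UMIs in control foam cells (11.8 CPM, 7 of 9 at 0). The Mac class was more mixed: 169 of 739 cells had at least 3 T cell UMIs, 166 at least 3 B cell UMIs and 88 at least 3 neutrophil UMIs, against 3, 4 and 0 of 52 foam cells. A restricted Mac set of 398 cells (103 diabetic, 295 control), with at least 5 pan-macrophage UMIs and under 3 of each of these lists, therefore stands beside the results it changes. Of 15 barcodes found in both libraries, 0 were foam cells. Scrublet called 7 of 3458 diabetic and 6 of 4215 control barcodes as doublets, none of them a foam cell or Mac, a rate too low to count as a working call. Apoe had 4 UMIs in diabetic foam cells and 0 in control foam cells, and being deleted in both groups it checks neither label.

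Foam cells made up 0.674% of annotated diabetic cells (0.393 to 1.08) and 1.14% of annotated control cells (0.798 to 1.59, exact Clopper-Pearson intervals). Of the 4 myeloid classes (foam cells, Mac, dendritic cells and monocytes) they were 5.76% of 295 diabetic cells (3.39 to 9.07) and 6.02% of 581 control cells (4.23 to 8.28). The intervals overlap by either denominator. No annotated cell had 3000 or more genes (highest 2990 diabetic and 2998 control), and deep barcodes above that limit carry no class.

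Trem2 was the marker found in most foam cells. It had a UMI in 48 of 52 foam cells and in 402 of 739 Mac, against 6 of 1352 cells of the main smooth muscle class (VSMCs-2), which should lack it and whose median depth was 6110.5 UMIs. Spp1 had a UMI in 32 foam cells, 84 Mac and 41 VSMCs-2 cells, Fabp5 in 24, 133 and 152, and Gpnmb in 13, 26 and 16. After every cell was thinned to 1000 UMIs, Trem2 was seen in 57.7% of foam cells (43.2 to 71.3) and in 160 of 696 Mac, against 0.148% of VSMCs-2 cells. On the same thinned scale Spp1 was seen in 46.2% of foam cells and 4.45% of Mac, Fabp5 in 25.0% and 6.03%, and Gpnmb in 13.5% and 0.862%. Monocytes, 28 cells in all, had shares of 21.4% for Trem2, 25.0% for Spp1, 21.4% for Fabp5 and 14.3% for Gpnmb, and Fib-3 fibroblasts 10.3% for Gpnmb. All 4 markers were above the smooth muscle share in foam cells, and thinning left out 43 Mac and 0 foam cells. By cell, 10 foam cells carried all 4 markers, 10 carried 3, 17 carried 2, 13 carried 1 and 2 carried none.

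Trem2, which senses lipids and signals through the adaptor Tyrobp, had 926 and 1192 CPM in diabetic and control foam cells, against 207 and 267 CPM in diabetic and control Mac. Foam cells were above Mac in either library, and the ratio over both was 4.39-fold (3.91 to 4.92), at 4.47-fold within each library. Fabp5, which carries fatty acids in the cytosol, had 1930.2 and 787 CPM in diabetic and control foam cells, against 275 and 60.0 CPM in diabetic and control Mac, and its ratio was 9.74-fold (8.57 to 11.1). Gpnmb, a membrane glycoprotein of lysosomes, had 2178 and 216 CPM in diabetic and control foam cells, against 56.7 and 8.79 CPM in diabetic and control Mac. Its ratio of 41.1-fold (32.5 to 52.5) rests on 13 cells, of which 1 diabetic cell held 51.7% of the UMIs, and without that cell it was 19.9. Spp1, a secreted integrin ligand also known as osteopontin, had 704 and 5413 CPM in diabetic and control foam cells, against 386 and 79.9 CPM in diabetic and control Mac. The ratio of 21.1-fold (19.3 to 23.2) was 67.8 in the control library and 1.82 in the diabetic library, below the 2-fold rule used here. In other classes Spp1 had 1404 and 1257 CPM in diabetic and control Fib-2 fibroblasts, where 82.6% and 45.1% of the UMIs sat in 1 cell of each library, and 9515 CPM in control monocytes, where 85.6% sat in 1 cell. Gpnmb had 151 and 121 CPM in diabetic and control Fib-1 fibroblasts, so neither gene was seen in foam cells alone.

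**Figure D1:**
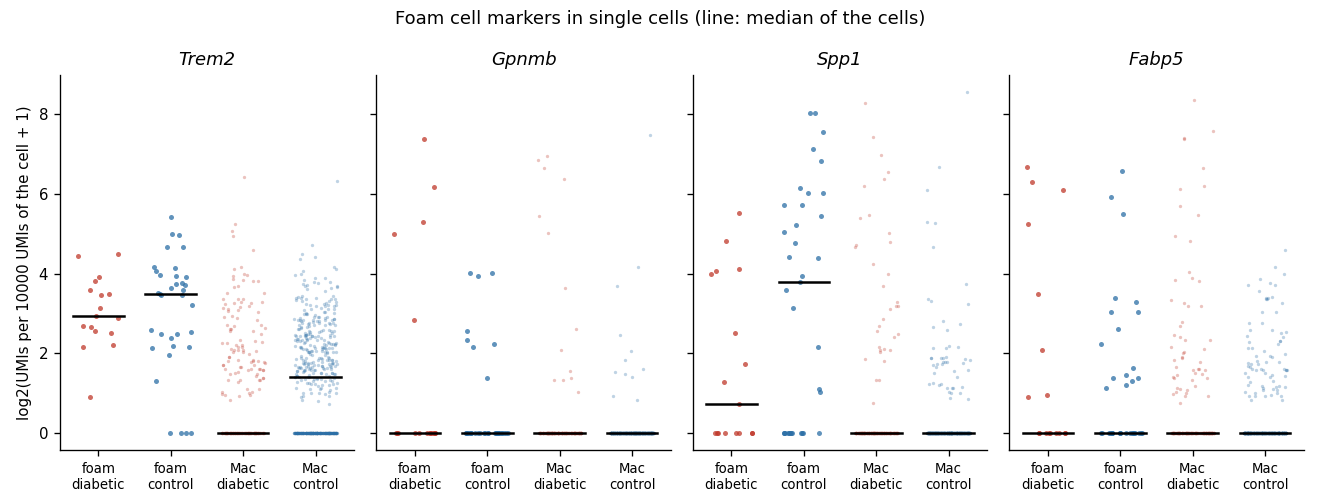
UMIs of Trem2, Gpnmb, Spp1 and Fabp5 in each cell, as log2 of UMIs per 10000 UMIs of the cell plus 1, for diabetic and control foam cells (17 and 35 cells) and diabetic and control Mac (229 and 510 cells), with each point a cell and each line the median of the cells. Only Trem2 and Spp1 have a foam cell median above 0, and Gpnmb lies at 0 in 39 of 52 foam cells.

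These genes lie on separate chromosomes. In the GENCODE mouse annotation on build mm10 the protein-coding genes span chr17:48346401-48354147 for Trem2, chr6:49036546-49070929 for Gpnmb, chr5:104435118-104441050 for Spp1 and chr3:10012548-10016607 for Fabp5, all on the + strand. Because the series is about AP-1, the 250 bases before the RefSeq start (GRCm38.p6, + strand, 5′ to 3′) are shown for the 3 markers with an entry, with a match to the AP-1 motif TGANTCA, searched on both strands, in capitals. The windows are chr17:48346151-48346400, chr6:49036268-49036517 and chr5:104434861-104435110.
Trem2: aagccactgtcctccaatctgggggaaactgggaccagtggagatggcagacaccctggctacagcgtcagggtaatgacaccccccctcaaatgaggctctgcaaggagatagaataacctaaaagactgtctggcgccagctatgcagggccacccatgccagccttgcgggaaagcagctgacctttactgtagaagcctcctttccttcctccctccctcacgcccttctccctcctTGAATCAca
Gpnmb: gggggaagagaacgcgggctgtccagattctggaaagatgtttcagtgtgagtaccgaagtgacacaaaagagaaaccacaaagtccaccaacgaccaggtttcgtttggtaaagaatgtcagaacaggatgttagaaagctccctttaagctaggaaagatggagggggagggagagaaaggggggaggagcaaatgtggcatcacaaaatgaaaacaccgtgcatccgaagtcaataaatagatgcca
Spp1: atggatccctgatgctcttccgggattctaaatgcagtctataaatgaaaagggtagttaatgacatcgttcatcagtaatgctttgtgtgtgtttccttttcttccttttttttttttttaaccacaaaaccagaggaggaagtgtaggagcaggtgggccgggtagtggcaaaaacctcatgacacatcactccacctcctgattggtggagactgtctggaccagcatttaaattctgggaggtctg
N stands for any base in TGANTCA, which is thus a broad form of the AP-1 motif. Trem2 had a match, TGAATCA, that began 9 bases before its start. Gpnmb had 1 that began 8 bases after its start, outside the window printed, and Spp1 had none. Of 27025 promoters in windows of 300 bases (250 before to 50 after the start), 7.93% held TGANTCA and 7.24% the E-box CACGTG, which was in none of the 3. A match is a description of letters and not a bound site.

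Foam cells were set against Mac gene by gene. Of 7625 genes with at least 30 UMIs in both classes together, 406 (5.32%) were called higher and 985 (12.9%) lower, at 2-fold or more with the exact interval of the CPM ratio excluding 1. Both libraries lay on the same side for 385 of the higher (5.05% of genes tested) and 805 of the lower genes (10.6%). The median gene had a log2 ratio of -0.14. With every cell thinned to 1000 UMIs the balance turned, with 174 genes higher and 156 lower. Against the restricted Mac set 615 genes were lower, and 522 of them were among the 985.

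Genes spread over the class, with a UMI in at least 10% of its cells and no cell over 10% of the UMIs, were ranked by the bound of their interval that lies closest to 1. This leaves out genes whose UMIs were more concentrated, such as Gpnmb, Spp1 and Mmp12. Lgals3, the lectin galectin-3, had 8914 and 8162 CPM in diabetic and control foam cells, against 1482 and 1138 CPM in diabetic and control Mac, and its ratio was 6.80-fold (6.51 to 7.11). All 52 foam cells had a Lgals3 UMI, with a median of 42 per cell and a range of 3 to 285. Cd72, a C-type lectin receptor best known on B cells, had 456 and 1298 CPM in diabetic and control foam cells, against 79.7 and 165 CPM in diabetic and control Mac (7.04-fold, 6.17 to 8.04), and 41 of 52 foam cells had a UMI. Cd79a, the B cell receptor chain, had 0 UMIs in foam cells, and the antibody heavy chain gene Ighm had 39. Capg, which caps actin filaments, was 3.98-fold (3.62 to 4.38) higher, and Pdlim7, a PDZ and LIM domain protein of the actin cytoskeleton, 4.55-fold (3.17 to 6.45). Gusb, a lysosomal hydrolase of glycosaminoglycans, was 3.83-fold (3.26 to 4.48) higher. The cholesterol exporter Abcg1 was 4.05-fold (2.86 to 5.66) higher, at 1.995 within the diabetic and 5.73 within the control library. Mpeg1, a pore-forming protein of phagosomes, was 3.78-fold (3.15 to 4.53) higher, the membrane protein Plp2 4.48-fold (3.63 to 5.52), the signalling adaptor Lat2 3.97-fold (3.20 to 4.91) and the G protein subunit Gngt2 3.89-fold (3.22 to 4.67).

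By the same ranking the 12 genes lowest against Mac included resident macrophage, monocyte and B lineage genes. Cd209f, a C-type lectin, had 0 UMIs in foam cells and 778 in Mac, a ratio of at most 0.0354 with a floor of 3 UMIs over the class. Ednrb, an endothelin receptor, and Hbegf, an epidermal growth factor receptor ligand, were also at 0 UMIs in foam cells, with ratios of at most 0.0567 and 0.0795. The complement component C4b had 1 UMI in foam cells and 968 in Mac (0.00949, 0.000240 to 0.0530). Lyve1, a hyaluronan receptor, had 6.52 and 47.2 CPM in diabetic and control foam cells, against 309 and 577 CPM in diabetic and control Mac (0.0643, 0.0342 to 0.110). Cd163, the haemoglobin scavenger receptor, had 19.6 and 7.87 CPM in diabetic and control foam cells, against 218 and 294 CPM in diabetic and control Mac (0.0453, 0.0147 to 0.106). The chemokine Ccl8 (0.0675), the lectin Fcna (0.0528) and Plac8 (0.0236), a gene known in monocytes and other myeloid cells, were lower too. The B lineage genes Igkc (0.0146), Cd79a and Ly6d (0 UMIs in foam cells for both) were lower against all Mac. Against the restricted Mac set Igkc had a ratio of 0.531 and was not called, Ly6d was not called, and Cd79a had too few UMIs.

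**Figure D2:**
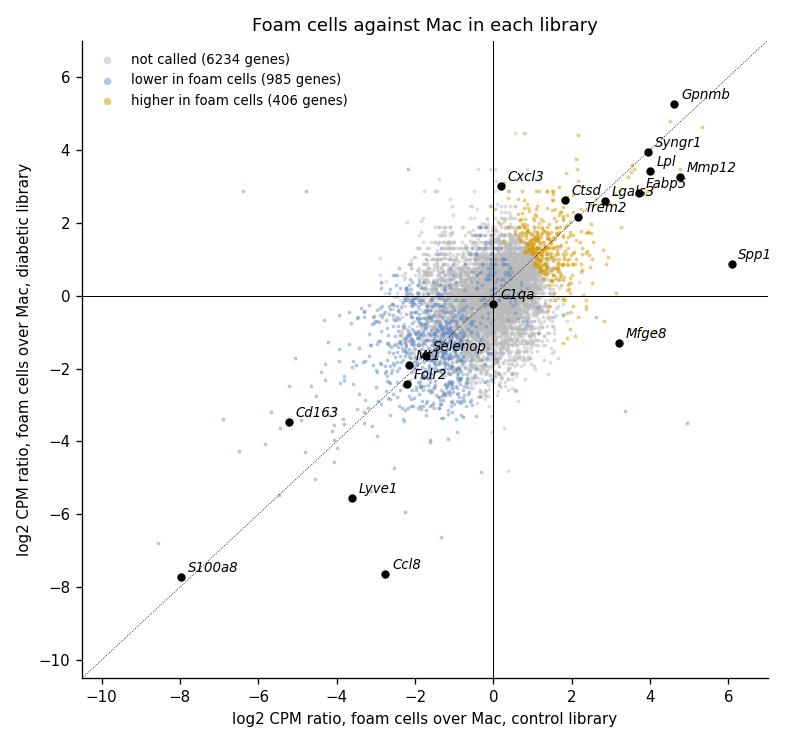
Log2 CPM ratio of foam cells over Mac for 7625 genes, within the control library on the x axis and within the diabetic library on the y axis, with counts of 0 set to 3 UMIs and genes coloured by their call over both libraries. Most called genes lie near the dotted line of equal ratios, and Spp1 and Mfge8 lie far below it with control ratios of 67.8 and 9.18 and diabetic ratios of 1.82 and 0.405.

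Genes linked to lipid-associated macrophages in mouse fat and plaque were mostly above Mac: 20 of 24 tested were higher and 0 lower, with a median log2 ratio of 1.78 beside -0.14 over all genes. Over all genes 5.32% were higher and 12.9% lower. This lipid-associated list includes the 4 markers used to check the label. Cd9, a tetraspanin of the cell surface, had 1872 and 2726 CPM in diabetic and control foam cells, against 270.0 and 315 CPM in diabetic and control Mac, and its ratio was 7.98-fold (7.32 to 8.71). Mmp12, the macrophage elastase, had 509 and 1341 CPM in diabetic and control foam cells, against 53.1 and 49.3 CPM in diabetic and control Mac (20.4-fold, 17.1 to 24.3), with UMIs in 19 of 52 cells. Lpl, the lipase that releases fatty acids from lipoproteins, was 13.9-fold (11.5 to 16.8) higher, and the small vesicle protein Syngr1 15.8-fold (10.0 to 25.2). Itgax, the integrin Cd11c, was 2.75-fold (1.64 to 4.42) higher with 23 UMIs and was not called (1.91) without its top cell, the one with most of its UMIs. Cd63, Ctsl, Lgals1 and Cstb were tested and not called.

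Lipid handling lists differed from one another, beside 5.32% higher and 12.9% lower of all genes and their median of -0.14. Of 10 fatty acid binding and lipolysis genes 4 were higher and 0 lower (median 0.76), namely Lpl, Fabp5, Fabp4 (2.82-fold, 2.06 to 3.81) and Lipa, the lysosomal acid lipase (2.09-fold, 1.68 to 2.58). Fabp4 rests on 1 cell with 49.1% of its UMIs and was not called without it (1.43). Plin2, which coats lipid droplets, had 932 and 1066 CPM in diabetic and control foam cells, against 385 and 534 CPM in diabetic and control Mac (2.08-fold, 1.86 to 2.31), and Soat1, which esterifies cholesterol for storage, was 2.57-fold (1.72 to 3.77) higher. Plin2 was not called without its top cell (1.83) or against the restricted Mac set (1.73), and Lipa was not called under either (1.90 and 1.89). In the lipid droplet list of 13 genes (median 0.02), 2 were higher and 2 lower, the lower share near that of all genes. The lower ones were the triglyceride enzymes Dgat1 (0.206, 0.0419 to 0.614) and Lpin1 (0.219, 0.0261 to 0.815). Of 16 genes of cholesterol efflux and liver X receptor targets (median 0.31), 3 were higher: Abcg1, the liver X receptor gene Nr1h3 (4.41-fold, 2.02 to 9.11, 12 UMIs in foam cells) and Apoc1 (99 UMIs in foam cells, 87.9% of them in 1 cell). Abca1, the other main exporter, had a ratio of 0.817 (0.618 to 1.06) and was not called. Cholesterol synthesis and uptake had 0 higher and 1 lower of 15 genes, the regulator Srebf2 (0.372, 0.147 to 0.783), both shares below those of all genes. Scavenger receptors had 1 higher and 5 lower of 12 (median -0.81), and Cd163, Mrc1 and Stab1 of these are also in the resident macrophage list. Cd36, a receptor for oxidised lipoprotein, had 169.5 and 232 CPM in diabetic and control foam cells, against 352 and 459 CPM in diabetic and control Mac (0.489, 0.388 to 0.608), and the mannose receptor Mrc1 was at 0.185 (0.131 to 0.253). Msr1, scavenger receptor A, had a ratio of 1.27 (0.857 to 1.82) and Lrp1 one of 1.85 (1.48 to 2.29), neither called. Cxcl16, a membrane chemokine that binds oxidised lipoprotein, was the higher member (2.60-fold, 2.30 to 2.94).

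Lysosomal genes were higher in part. Of 16 cathepsins and inhibitors 5 were higher and 0 lower (median 0.52), beside 5.32% higher and 12.9% lower of all genes. Ctsd, an aspartic protease, had 3743 and 3257 CPM in diabetic and control foam cells, against 607 and 919 CPM in diabetic and control Mac (4.17-fold, 3.91 to 4.44), Ctss 5575 and 5971 CPM in diabetic and control foam cells, against 1204 and 1882 CPM in diabetic and control Mac (3.47-fold, 3.31 to 3.64), and Ctsb and Ctsz were 2.71-fold and 2.51-fold higher. Ctsk, the collagen-cutting cathepsin of osteoclasts, was 11.5-fold (5.66 to 23.7) higher on 20 UMIs, 55.0% of them in 1 cell. Of 32 lysosomal hydrolase and membrane genes 7 were higher and 0 lower (median 0.29), among them Psap, the precursor of the saposins (2.80-fold, 2.66 to 2.94), Cd68 (2.26-fold, 2.06 to 2.48) and the acid phosphatase Acp5 (2.81-fold, 2.16 to 3.62). Of 16 subunits of the vacuolar proton pump 2 were higher, Atp6v0d2 (10.2-fold, 5.91 to 17.6) and Atp6v1c1 (2.40-fold, 1.92 to 2.98). Of 12 lysosome regulator genes 1 was higher and 1 lower (median -0.31), shares near those of all genes. Tfeb, a master factor of lysosome genes, was 3.26-fold (1.48 to 6.67) higher on 11 UMIs. Flcn, which restrains Tfeb, was lower (0.408, 0.208 to 0.725). Of 10 osteoclast-associated genes 3 were higher (Acp5, Ctsk and Atp6v0d2) and 1 lower, the gelatinase Mmp9 (0.0325, 0.000819 to 0.182, 1 UMI in foam cells). Matrix proteases and inhibitors split 3 higher to 4 lower of 16, with the metalloprotease Adam8 at 4.75-fold higher, beside Mmp12.

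**Figure D3:**
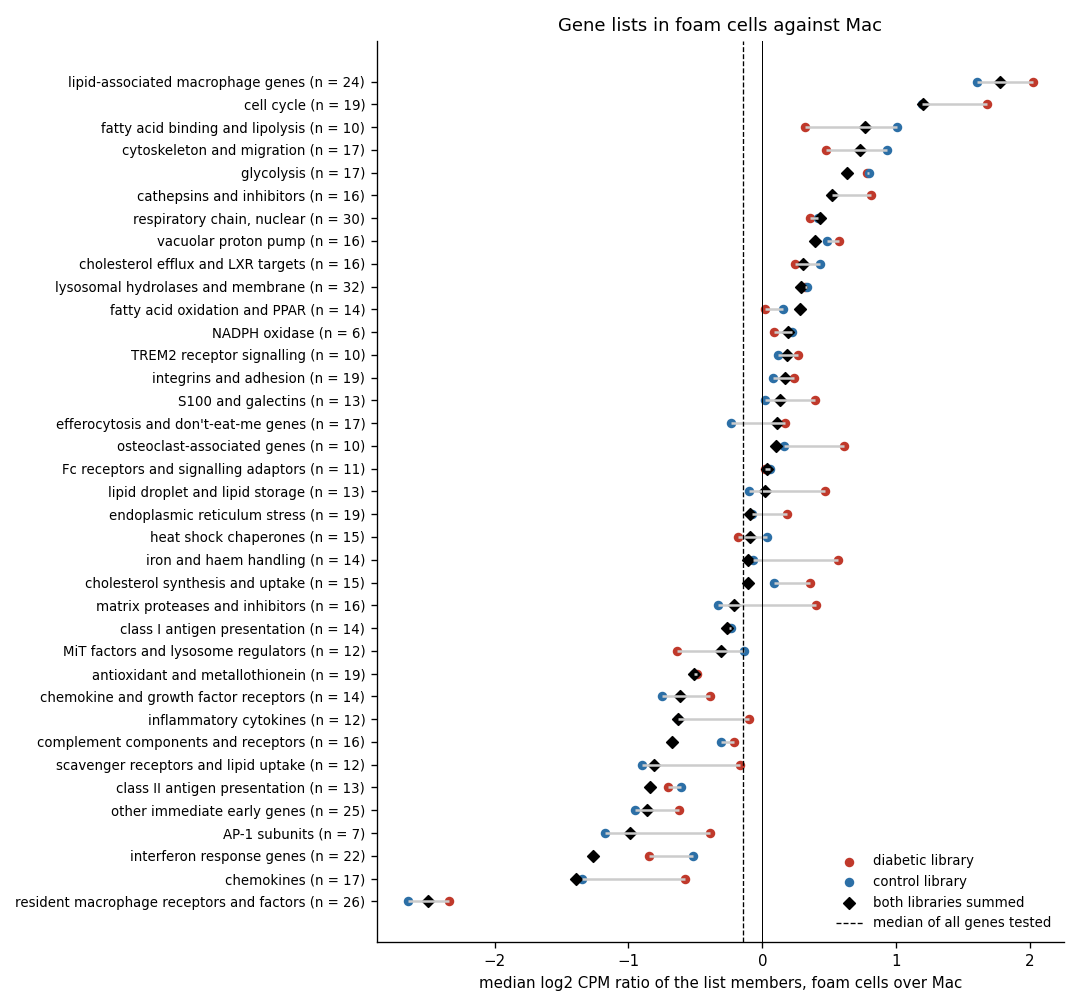
Median log2 CPM ratio of foam cells over Mac for the members of each gene list, for the diabetic library, the control library and both libraries summed, with the dashed line at the median of all genes tested (-0.14) and n the members tested. The dashed line is for both libraries summed, and within the diabetic and control library the all-gene medians were 0.007 and -0.029. Lipid-associated macrophage genes lie furthest right at 1.78 and resident macrophage genes furthest left at -2.50, both on the same side in either library.

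Resident macrophage receptors and factors had the lowest median of the lists plotted, with 23 of 26 lower and 0 higher (median -2.50). Over all genes 12.9% were lower and 5.32% higher. Selenop, a secreted selenium carrier, had 1226 and 1770.1 CPM in diabetic and control foam cells, against 3894 and 5787 CPM in diabetic and control Mac (0.300, 0.277 to 0.325), and Pf4, a platelet-factor chemokine, 1487 and 1069.9 CPM in diabetic and control foam cells, against 3269.9 and 4933 CPM in diabetic and control Mac (0.277, 0.253 to 0.303). Folr2, the folate receptor beta, had 150.0 and 239.9 CPM in diabetic and control foam cells, against 808 and 1105 CPM in diabetic and control Mac (0.203, 0.161 to 0.252). F13a1, a clotting transglutaminase subunit, was at 0.138 (0.102 to 0.182). Some foam cells still held these transcripts, and 16 of 52 foam cells had a Mrc1 UMI, against 567 of 739 Mac. The restricted Mac set gave lower ratios for Lyve1 (0.0545) and Cd163 (0.0386) than all Mac did (0.0643 and 0.0453).

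Most chemokines were below Mac. Of 17 chemokines 11 were lower and 2 higher, beside 12.9% and 5.32% of all genes (median -1.39 over both libraries, -0.58 in the diabetic and -1.35 in the control library). Ccl2, which draws in monocytes, had 469.5 and 129.8 CPM in diabetic and control foam cells, against 1289.7 and 1986 CPM in diabetic and control Mac (0.145, 0.118 to 0.176), and Ccl7 was at 0.111 (0.0905 to 0.135) and Ccl6 at 0.381 (0.344 to 0.422). Cxcl3, a neutrophil chemokine, was 6.19-fold (4.75 to 8.04) higher, with 66.7% of its foam cell UMIs in 1 cell. Of 12 inflammatory cytokine genes 4 were lower and 0 higher, including Il10 (0.465) and the inflammasome gene Nlrp3 (0.454). Complement had 6 lower and 1 higher of 16, and 9 were not called, while the C1q chains had ratios near 1. C1qa had 3384 and 7371 CPM in diabetic and control foam cells, against 3983 and 7353 CPM in diabetic and control Mac (0.927, 0.888 to 0.966), C1qb a ratio of 1.09 (1.05 to 1.14) and C1qc one of 0.929 (0.886 to 0.973), none called. C5ar1, the receptor for the C5a fragment, was lower (0.454, 0.383 to 0.534).

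Antigen presentation and interferon lists had 0 members called higher than Mac, beside 5.32% of all genes called higher and 12.9% lower. Class II genes had 4 lower of 13 (H2-DMb2, H2-Oa, H2-Ob and Cd80, with 1 or 2 UMIs each in foam cells), while H2-Ab1 had 2902 and 4622 CPM in diabetic and control foam cells, against 4741 and 6978 CPM in diabetic and control Mac (0.631, 0.599 to 0.663, not called). The invariant chain Cd74 had a ratio of 0.693 (0.675 to 0.712). Class I had 2 lower of 14, a share near that of all genes, and interferon response genes 13 lower of 22 (median -1.27). Ifitm3, a restriction factor in endosome membranes, had 965 and 452 CPM in diabetic and control foam cells, against 1884 and 2055 CPM in diabetic and control Mac (0.322, 0.284 to 0.364), and Isg15 was at 0.206 (0.0820 to 0.429). Within single libraries the interferon median was -0.85 in the diabetic and -0.52 in the control library, where more members lie at the floor of 3 UMIs. The list of Fc receptors and adaptors had 0 higher and 1 lower of 11, the neonatal Fc receptor Fcgrt (0.234, 0.181 to 0.296).

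AP-1 subunits, the subject of the series, had 0 higher and 3 lower of 7 members (median -0.99), beside 5.32% higher and 12.9% lower of all genes and their median of -0.14. Fos had 1154 and 783 CPM in diabetic and control foam cells, against 603 and 461 CPM in diabetic and control Mac, and a ratio of 1.83 (1.64 to 2.05), under the 2-fold rule. Jun had 78.3 and 27.5 CPM in diabetic and control foam cells, against 81.4 and 79.1 CPM in diabetic and control Mac, and a ratio of 0.584 (0.347 to 0.928). Junb had a ratio of 0.838 (0.714 to 0.979) and Fosb one of 0.504 (0.407 to 0.617), none called. Jund (0.302, 0.201 to 0.436) and Fosl2 (0.209, 0.104 to 0.378) were lower, and Fosl1 had 0 UMIs in foam cells against 78 in Mac, a ratio of at most 0.353. Of 25 other immediate early genes 9 were lower and 0 higher, among them the nuclear receptors Nr4a1 (0.337), Nr4a2 (0.247) and Nr4a3 (0.0859) and the factor Klf4 (0.454).

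Glycolytic enzymes were higher in part. Of 17 glycolysis genes 7 were higher and 2 lower (median 0.64), beside 5.32% higher and 12.9% lower of all genes. The lower share was near that of all genes. Gapdh had 1539 and 1141 CPM in diabetic and control foam cells, against 698 and 570.3 CPM in diabetic and control Mac (2.12-fold, 1.92 to 2.33), Pgam1 was 2.93-fold (2.40 to 3.57) and Pkm 2.49-fold (2.21 to 2.79) higher, followed by Aldoa (2.15-fold). The lower members were hexokinase 2, Hk2 (0.316, 0.162 to 0.559), and Pfkfb3, the enzyme that sets the level of a fructose bisphosphate activator (0.185, 0.0594 to 0.436). Of 30 nuclear respiratory chain genes and 14 fatty acid oxidation genes 0 were called either way, with medians of 0.43 and 0.28. Antioxidant genes split, with 3 higher and 5 lower of 19 (median -0.51). The peroxiredoxin Prdx1 (2.74-fold, 2.57 to 2.91), thioredoxin Txn1 (2.28-fold) and the glutathione peroxidase Gpx1 (2.12-fold) were the higher ones. The metal-binding metallothioneins Mt1 and Mt2 were among the lower ones. Mt1 had 1232 and 1314 CPM in diabetic and control foam cells, against 4576 and 5801 CPM in diabetic and control Mac (0.236, 0.216 to 0.258), and Mt2 was at 0.259 (0.211 to 0.315). Hmox1, the haem-degrading enzyme, was also lower (0.193, 0.157 to 0.236). Of 17 cytoskeleton and migration genes 6 were higher and 1 lower. Anxa1 (3.20-fold) and Anxa4 (3.04-fold), which bind phospholipids and calcium, and the intermediate filament gene Vim (2.38-fold) were among the higher ones. Cx3cr1, the fractalkine receptor, was 2.54-fold (1.80 to 3.53) higher. It was the only higher member of 14 chemokine and growth factor receptors, of which 4 were lower (median -0.62).

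Cell cycle genes came from few cells. Of 19 tested, 13 were higher and 0 lower (median 1.20), with the mitotic kinase Cdk1 at 24.7-fold (12.8 to 51.0) higher on 35 UMIs. Over all genes 5.32% were higher and 12.9% lower. Together 5 foam cells (2 diabetic, 3 control) had UMIs of Mki67, Top2a and Cdk1 together and held 69.3% of the foam cell UMIs of the list, and 3 of 739 Mac had all 3. Another 3 foam cells had a UMI of some but not all of these genes, which makes 8 of 52 with any.

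The 52 cells varied among themselves. Ranges per cell were 0 to 42 UMIs of Trem2 (median 5), 0 to 360 of Spp1 (3.5), 0 to 201 of Gpnmb (0), 0 to 122 of Fabp5 (0) and 0 to 200 of C1qa (41). The class II gene H2-Ab1 was uneven, with 15 cells at 20 or more UMIs, 11 of these at 50 or more, and 27 cells at 0 to 3. Across the 52 cells, each thinned to 2000 UMIs, Trem2 ran with Spp1 (Spearman's rho 0.78), H2-Ab1 with Cd74 (0.90) and C1qa with C1qb (0.80), while Cd9 ran against H2-Ab1 (-0.50) and Trem2 showed no relation to C1qa (0.02). Lgals3 and Ctsd had a rho of 0.60. These are descriptions over cells that share 2 libraries, with no test.

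The 13 cells with a Gpnmb UMI (5 diabetic, 8 control, median depth 8008 UMIs) are set beside the other 39 (median 7087). They had 14058 CPM of Lgals3 against 6289, 1742 CPM of Trem2 against 842, and 1609 CPM of Lpl against 333. Fabp5 was seen in 12 of 13 and in 12 of 39, and Cd72 in 6 of 13 and in 35 of 39. C1qa had a median of 3 UMIs in the 5 diabetic Gpnmb cells and 33.5 in the 12 diabetic cells without Gpnmb, against 48.5 and 48 in the 8 and 27 control cells. The split is by a measured gene, so these values are a description and not a comparison of groups.

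**Figure D4:**
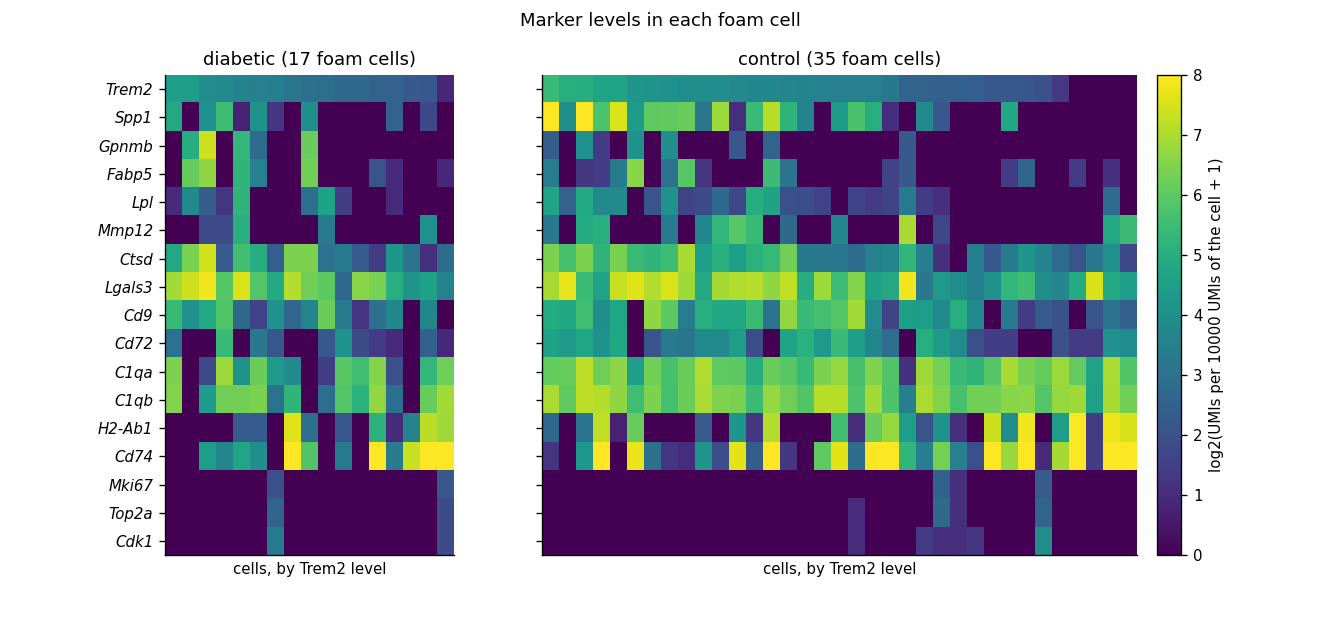
Level of 17 genes in each of the 17 diabetic (left) and 35 control (right) foam cells, as log2 of UMIs per 10000 UMIs of the cell plus 1, with each column a cell, ordered by Trem2 level within its library. Trem2 and Lgals3 fill nearly every column, whereas Gpnmb marks 5 diabetic and 8 control cells and Mki67, Top2a and Cdk1 together mark 2 and 3.

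Diabetic foam cells were set against control foam cells where counts allowed, on 17 and 35 cells. Of 1633 genes with at least 30 UMIs in both together, 88 (5.39%) were higher and 152 (9.31%) lower at 1.5-fold or more with the interval excluding 1. The median gene had a log2 ratio of -0.07. Trimmed mean scaling moved every log2 ratio by -0.104 and gave 61 higher and 211 lower, and scaling without mitochondrial and ribosomal protein genes gave 131 higher and 111 lower, so the balance of the directions depends on the scaling. Leaving out the top cell of each gene, the one with most of its UMIs on the higher side, the counts were 33 and 83, and without the 7 foam cells with at least 3 T cell or B cell UMIs 74 and 121. Beside these results, T cell markers had 326 and 11.8 CPM and red cell markers 561 and 110 CPM in diabetic and control foam cells, and their part in the results was not tested.

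Among genes spread over many cells, the lower ones included immune receptors and complement genes. No higher gene met that rule, but it is harder to meet among 17 diabetic cells than among 35 control cells. The deepest diabetic foam cell held 15470 of 153353 UMIs, and the deepest control foam cell 14711 of 254226. The lack of higher genes is therefore not read as a result. Cd81, a tetraspanin, had 398 CPM in diabetic foam cells (61 UMIs), against 1617 CPM in control foam cells (411 UMIs), a ratio of 0.246 (0.185 to 0.323), and in Mac its ratio was 0.483 (0.448 to 0.520). Hpgds, a prostaglandin synthase, had 45.6 CPM in diabetic foam cells (7 UMIs), against 220.3 CPM in control foam cells (56 UMIs), a ratio of 0.207 (0.0797 to 0.456), and in Mac a ratio of 0.905 (0.755 to 1.08). The complement receptor C5ar1 (0.293, 0.180 to 0.459), the dipeptidyl peptidase Ctsc (0.417, 0.322 to 0.534) and the Fc receptor Fcgr3 (0.466, 0.349 to 0.614) were lower, with Mac ratios of 0.459, 0.519 and 0.556. Tmem59, a membrane protein linked to autophagy, was at 0.418 (0.270 to 0.628) and Coro1a, an actin regulator of leukocytes, at 0.488 (0.371 to 0.636), with Mac ratios of 0.692 and 1.08. With every cell thinned to 1000 UMIs, Hpgds (0.588), C5ar1 (0.606) and Tmem59 (0.343) were not called. C1qb had 4558 CPM in diabetic foam cells (699 UMIs), against 8677 CPM in control foam cells (2206 UMIs), a ratio of 0.525 (0.482 to 0.572), and C1qa and C1qc were at 0.459 (0.416 to 0.506) and 0.498 (0.447 to 0.553). In Mac the 3 chains had ratios of 0.542, 0.595 and 0.621, taken in the order C1qa, C1qb, C1qc, and in the restricted Mac set 0.684, 0.775 and 0.763.

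By list, and beside 9.31% of all genes lower and 5.39% higher, 5 of 7 complement genes tested were lower and 1 higher (median -0.93), 5 of 9 Fc receptors and adaptors lower and 0 higher (median -0.77), and 5 of 10 pan-macrophage genes lower and 0 higher (median -0.66), including Adgre1 (0.467, 0.324 to 0.662) and Cd14 (0.586, 0.489 to 0.698). Cd14 was not called without the foam cells with lymphocyte UMIs (0.693) or without those with Gpnmb (0.698). In the Fc list, Fcgr4 and Fcgrt were lower over all foam cells but not called without their top cell (0.527 and 0.655). Without the foam cells with lymphocyte UMIs they were not called either (0.481 and 0.631). The C1q chains stand in both the complement and the pan-macrophage list. Class II had 3 of 7 lower, with H2-Ab1 at 0.628 (0.562 to 0.701). Ly86, which pairs with the receptor Cd180, was at 0.230 (0.125 to 0.397). The membrane protein Ms4a7 (0.315), Cd72 (0.352) and the protease Ctsl (0.338) were lower too. Cd68 had a ratio of 1.04 (0.876 to 1.24) and Trem2 one of 0.777 (0.632 to 0.951), neither called, and in Mac Trem2 had a ratio of 0.776 (0.667 to 0.902).

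The foam cell markers did not move together. Spp1 had 704 CPM in diabetic foam cells (108 UMIs), against 5413 CPM in control foam cells (1376 UMIs), a ratio of 0.130 (0.106 to 0.158). It had a UMI in 9 of 17 diabetic and 23 of 35 control foam cells, at a median of 1 UMI (0 to 34) and 6 UMIs (0 to 360) per cell. Without its top cell the ratio was 0.176, and without the cells holding lymphocyte UMIs 0.172. In Mac Spp1 was higher in the diabetic library, at 4.83 (4.09 to 5.72), with 34.6% of the diabetic and 24.9% of the control UMIs in 1 cell each, and in the restricted Mac set at 5.14 (3.88 to 6.85). Beside that top cell, diabetic Mac of 11779 and 1372 UMIs had 73.0 and 313 Spp1 UMIs per 10000. Gpnmb had 2178 CPM in diabetic foam cells (334 UMIs), against 216 CPM in control foam cells (55 UMIs), a ratio of 10.1 (7.55 to 13.6), from 5 of 17 diabetic and 8 of 35 control cells, with 60.2% of the diabetic UMIs in 1 cell and a ratio of 4.01 without it. Its ratio in Mac was 6.44 (3.95 to 10.9), and 10.3 (5.98 to 18.6) in the restricted Mac set. The highest Gpnmb levels in diabetic Mac were 124 and 114 UMIs per 10000, in shallow cells of 1372 and 1228 UMIs. In control Mac the highest was 179 in a cell of 503 UMIs. All 4 markers were carried by 8 of 229 diabetic and 2 of 510 control Mac. Fabp5 had 1930.2 CPM in diabetic foam cells (296 UMIs), against 787 CPM in control foam cells (200 UMIs), a ratio of 2.45 (2.04 to 2.95), and in Mac 4.59 (3.77 to 5.59). That foam cell value rests on the Gpnmb cells: without them Fabp5 had a ratio of 0.085, and without its top cell 1.44. The 0.085 itself rests on few cells, with Fabp5 seen in 3 of 12 diabetic (37.8 CPM) and 9 of 27 control cells (445 CPM). Of these, 1 control cell held 57 Fabp5 UMIs. Mmp12 was lower (0.379, 0.293 to 0.486, 5 of 17 and 14 of 35 cells), and in Mac its ratio was 1.08 (0.779 to 1.47). Lgals3 (1.09), Lpl (1.04), Cd9 (0.687) and Ctsd (1.15) were not called.

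Chemokine transcripts were higher in diabetic foam cells, with 7 of 12 tested higher and 2 lower (median 1.23), beside 5.39% higher and 9.31% lower of all genes and their median of -0.07. Ccl2 had 469.5 CPM in diabetic foam cells (72 UMIs), against 129.8 CPM in control foam cells (33 UMIs), a ratio of 3.62 (2.36 to 5.64), Ccl6 1695 CPM in diabetic foam cells (260 UMIs), against 539 CPM in control foam cells (137 UMIs), a ratio of 3.15 (2.55 to 3.90) and Ccl9 2178 CPM in diabetic foam cells (334 UMIs), against 810.3 CPM in control foam cells (206 UMIs), a ratio of 2.69 (2.25 to 3.21). These were seen in 8, 14 and 12 of 17 diabetic foam cells and in 12, 24 and 25 of 35 control foam cells. Ccl7 (7.33, 4.42 to 12.8), Ccl3 (2.49, 1.58 to 3.96) and the neutrophil chemokines Cxcl2 (2.22, 1.91 to 2.58) and Cxcl3 (21.8, 10.2 to 55.7) were higher as well. Much of this sat in few cells: the top diabetic cell of each gene held 59.5% of the diabetic Ccl7 UMIs, 58.8% of Ccl3, 44.9% of Ccl9 and 71.7% of Cxcl3, and Ccl3 and Ccl9 were not called without it. Without each gene's top cell the ratios were 2.41 for Ccl2, 2.09 for Ccl6, 2.97 for Ccl7, 1.48 for Ccl9, 1.02 for Ccl3 and 1.51 for Cxcl2. That of Cxcl3 was 6.16. With every cell thinned to 1000 UMIs, Ccl2 (1.47), Ccl3 (2.35), Ccl7 (4.46) and Cxcl3 (20.6) were not called. Ccl5 (0.0227), of which 1 control cell held 95.9% of the control UMIs, and Cxcl16 (0.510, 0.392 to 0.658) were lower, and Cxcl16 was not called without the foam cells with Gpnmb (0.738). After thinning neither was called. In Mac the same ratios were 0.649 for Ccl2, 0.771 for Ccl6, 0.716 for Ccl7, 0.742 for Ccl9, 0.666 for Ccl3 and 0.634 for Cxcl2, and in the restricted Mac set 0.915, 0.975, 0.856, 0.963, 0.576 and 0.596 in the same order.

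Other genes higher in diabetic foam cells were S100a4, a calcium-binding protein of migrating cells, with 2191 CPM in diabetic foam cells (336 UMIs), against 739.5 CPM in control foam cells (188 UMIs), a ratio of 2.96 (2.47 to 3.56) beside 1.43 in Mac, the cytokine Tnf (4.10, 2.28 to 7.67), the complement regulator properdin, Cfp (2.39, 1.66 to 3.47), the heat shock gene Hspa1a (3.35, 2.33 to 4.88) and Ifitm3 (2.13, 1.66 to 2.75). Of the AP-1 subunits, only 3 had enough UMIs and 0 were called: Fos had 1154 CPM in diabetic and 783 CPM in control foam cells (1.47, 1.20 to 1.81), Fosb 280.4 CPM in diabetic and 220.3 CPM in control foam cells (1.27, 0.835 to 1.93) and Junb 456 CPM in diabetic and 413 CPM in control foam cells (1.11, 0.805 to 1.51). The immediate early gene Atf3 was at 1.88 (1.36 to 2.61), with 45.2% of its diabetic UMIs in 1 cell. Cell cycle genes had 3 of 9 higher, Birc5 on 2 diabetic and 4 control cells. The respiratory chain had 2 higher and 1 lower of 30, no more than near the shares of all genes (5.39% higher and 9.31% lower). Tnf, Ifitm3 and Hspa1a were each the only higher member of their list. The cytokine, interferon and heat shock lists had 4, 4 and 9 genes tested and medians of -0.20, 0.03 and -0.16.

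**Figure D5:**
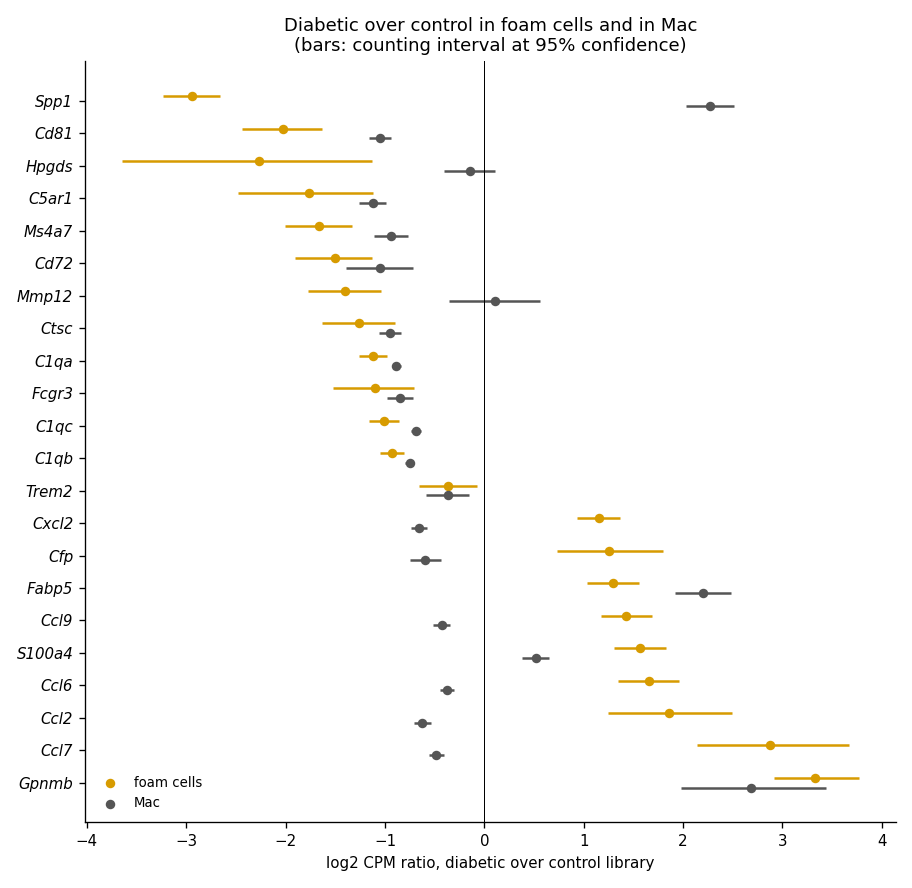
Log2 CPM ratio of the diabetic over the control library for 22 genes in foam cells (17 diabetic, 35 control cells) and in Mac (229 diabetic, 510 control cells), with bars for the 95% counting interval. C1q and receptor genes lie below 0 in both classes, while Spp1, Ccl2, Ccl6, Ccl7, Ccl9, Cxcl2 and Cfp lie on opposite sides of 0, with Spp1 at a ratio of 0.130 in foam cells and 4.83 in Mac.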

How the data were processed

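Single-cell RNA was sequenced from 1 pooled aortic library per group (10x Genomics droplets, per the labels' protocols). Values in the deposited matrices are unscaled UMI counts, whole numbers for each gene in each barcode. Cell Ranger 3.1.0, mm10 and Partek are named in the submitters' processing notes. The barcode filter is not stated in the sources used here. Cell classes are the authors' own, from their deposited tables, and 0 columns of per-sample values were left unused.

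Barcodes of class Foam cells were matched to the matrices, and UMIs were summed per class and library and scaled to CPM. Ratios have exact conditional binomial intervals, levels exact Poisson and shares exact Clopper-Pearson intervals at 95% confidence. UMI depth sets their width, and they cover counting error only. Genes needed 30 UMIs over both sides, and calls a 2-fold (foam cells against Mac) or 1.5-fold (diabetic against control) ratio with the interval excluding 1. A count of 0 was set to 3 UMIs over the class for bounds and medians. Shares of cells were taken after thinning to 1000 UMIs, with seed 1. The foam cell against Mac ratio, its interval and the call rule were tested on simulated counts. These were drawn per class without spread between cells, so the test does not cover genes whose UMIs sit in few cells. Named genes were the 12 highest and 12 lowest (8 each way between groups) by the interval bound nearest to 1, with a UMI in at least 10% of cells, no cell over 10% of the UMIs on the higher side and the same side of 1 in both libraries, the foam cell markers, all 7 AP-1 subunits, and up to 4 called members of each list with up to 2 that went against it. Mitochondrial, ribosomal protein and haemoglobin genes were not named by that rule, and a few other genes are not reported here. Members and lists were chosen with earlier results of these data known. Other genes named beside these were chosen after their values were seen. Alternatives covered scaling (trimmed mean with edgeR 4.0.16 in R 4.3.3), thinning, minimums, size rules, libraries, single cells and the Mac set. Doublets were called with scrublet in scanpy 1.11.5 at an expected rate of 0.05. Other tools were Python 3.11.15, numpy 2.4.6, scipy 1.17.1, pandas 2.3.3 and matplotlib 3.10.9. Gene positions are from GENCODE and promoter sequences from RefSeq GRCm38.p6, matched by symbol for 3 of 4 markers.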

Additional observations from a re-analysis of the deposited data

Results flagged for a closer look

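Some deep barcodes without a class carried foam cell markers, a signal in barcodes that none of the comparisons use. Of unclassified barcodes with 3000 or more genes, 21 of 114 in the diabetic library (18.4%) and 15 of 73 in the control library (20.5%) had UMIs of 3 or 4 of the markers Trem2, Gpnmb, Spp1 and Fabp5, and 6 and 5 had all 4. Their median depths were 19801 and 16278 UMIs, and after thinning to 1000 UMIs 2 and 2 were left, against 4 of 17 diabetic and 5 of 35 control foam cells. They had 16940 and 28763 CPM of pan-macrophage markers in the diabetic and control library and also 2502 and 2232 CPM of T cell markers, against 326 and 11.8 CPM in diabetic and control foam cells. Trem2 had 305 and 628 CPM in these barcodes, below the 926 and 1192 CPM of diabetic and control foam cells. By the same count, 18 of 229 diabetic and 12 of 510 control Mac had 3 or 4 markers, 8 and 2 of them all 4. Foam cells had 6 of 17 diabetic and 14 of 35 control, 4 and 6 with all 4. Of unclassified barcodes under 3000 genes, 0 of 820 diabetic and 31 of 1082 control had 3 or 4 markers. After thinning 9 were left. Those 31 had 13581 CPM of fibroblast and 9416 CPM of red cell markers. Whether the unclassified barcodes are foam cells or several cells in a droplet was not tested.

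Among the foam cell markers, the genes named by rule and the members of the chemokine, complement, Fc receptor, S100, class II, pan-macrophage and cytokine lists, 8 genes were called in 1 direction between diabetic and control foam cells while their counting interval in Mac lay wholly on the other side of 1. With 1 pooled library per group the difference was not tested across mice. Spp1 had a foam cell ratio 0.0269 times that of Mac. Ccl2 had a ratio 5.57 times that of Mac, Ccl3 3.74 times, Ccl6 4.08 times, Ccl7 10.2 times, Ccl9 3.62 times and Cxcl2 3.51 times. Cfp, the complement regulator properdin, had a ratio 3.61 times that of Mac. The chemokine values rest in part on single cells: without each gene's top cell the foam cell ratio was 1.02 for Ccl3 and 1.48 for Ccl9, neither called, and 2.97 for Ccl7. For Spp1, 1 cell held 34.6% of the diabetic Mac UMIs. In the restricted Mac set, the diabetic over control ratios of Ccl2 (0.915), Ccl6 (0.975) and Ccl9 (0.963) lay near 1, and that of Ccl3 was 0.576.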

How the results depend on the processing

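No paired analysis was possible because each group is 1 pooled library. The restricted Mac set and the removal of foam cells with Gpnmb or lymphocyte UMIs were chosen after seeing the data. Of values of single genes and lesser lists under an alternative, 1188 kept direction and call, 96 lost the call, 97 moved and 12 turned. Genes higher over Mac (406) came to 174 thinned to 1000 UMIs (75 of them among the 406), 190 with a minimum of 100 UMIs, 199 without the top cell of a gene, 120 and 789 at 3-fold and 1.5-fold, and 263 within the diabetic library (141 shared). Lower genes (985) came to 156 thinned (126 shared), 589 within the diabetic library (442 shared) and 615 (522 shared) against the restricted Mac set. Between groups, counts of 88 higher and 152 lower came to 23 and 25 thinned (11 and 18 shared), 48 and 70 with a minimum of 100 UMIs, 33 and 83 without the top cell (28 and 77 shared), and 44 and 97 at 2-fold, with 154 higher at a minimum of 10 UMIs. Thinning leaves fewer UMIs and also sets every cell to the same depth, and the part of each in these counts was not tested. Among list medians over Mac, cholesterol efflux at 0.307 was -0.0181 thinned and 0.133 restricted, lipid-associated genes were at 1.41 thinned, cathepsins at 0.813 in the diabetic library and 0.236 restricted, and resident genes at -1.90 thinned. The lysosomal median of 0.292 was 0.226 with trimmed mean scaling, 0.321 and 0.331 in the diabetic and control library, 0.0986 thinned and 0.0454 restricted, and the complement median of -0.673 was -0.739, -0.215, -0.306, -0.536 and -0.966 in the same order. Within the diabetic library chemokines were at -0.578, AP-1 at -0.391 and the cell cycle at 1.68 (0.655 thinned). The sign turned for cholesterol synthesis (0.357 diabetic, 0.0903 control, 0.605 thinned, 0.551 restricted), TREM2 signalling (-0.100 thinned), matrix proteases (0.401 diabetic, 0.185 thinned), efferocytosis (-0.231 control), iron handling (0.563 diabetic) and integrins (-0.132 thinned). Single-library medians have another base, since the median over all genes was 0.007 in the diabetic and -0.029 in the control library, against -0.142 over both. Counts of 0 were set to 3 UMIs in each of these sets. Between groups Fabp5 turned to 0.085 without Gpnmb cells, on 3 diabetic and 9 control cells with a UMI, and Fcgrt to 2.06 thinned. The deep unclassified barcodes numbered 6 and 5 with all 4 markers and 2 and 2 thinned. Trem2 was seen in 73.1% of foam cells at 2000 UMIs, against 57.7% at 1000. The causes were not tested. Depth limits genes under about 30 UMIs, and 17 diabetic cells limit every comparison between groups.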
